A study of Mus musculus with 12 samples.

Results

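The Ly6 surface antigens described here are 6 genes, Ly6g, Ly6c1, Ly6c2, Ly6e, Ly6a and Cd177, chosen by name because Ly6g is the marker by which the labels identify the cells and the others are relatives known from blood cells. All 6 were found among the 29737 genes of the count table, and all 6 passed the filter on low counts, as 16761 genes did. RNA was sequenced from neutrophils of mouse bone marrow with the WT genotype, cultured in RPMI medium with fetal bovine serum for 24 h with PBS as the control, with taurocholic acid (TCA, 200 μM), with tauro-β-muricholic acid (Tβ-MCA, 10 μM) or with glycocholic acid (GCA, 200 μM). Each of the 4 groups had 3 samples, 12 in all, with 32757389 to 41375925 counted reads per sample. By the labels, PBS replicates carry the numbers 3, 5 and 6 and those of every bile acid 3, 4 and 5. The doses are those of the labels, whereas the methods of the study give Tβ-MCA the same dose as the other bile acids. Tβ-MCA is therefore set beside TCA and GCA without a test. The labels describe a magnetic sort of Ly6G+ cells, and the methods a density medium followed by enrichment with a kit. The mice of the study were female C57BL/6 animals of 4 to 6 weeks. The sources do not say whether samples came from separate mice or cultures, so p-values measure only the spread between these samples, which may be technical.

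The LY6/uPAR family shares a small cysteine-rich fold with 3 loops that is held together by disulfide bonds. Most of its members sit on the cell surface through a glycosylphosphatidylinositol (GPI) anchor, which is made in the endoplasmic reticulum and attached in place of a membrane-spanning tail. Ly6g encodes the antigen used to stain, sort and deplete mouse neutrophils. Ly6c1 and Ly6c2 encode the Ly6C antigens, which are high on classical monocytes and lower on neutrophils. Ly6e is expressed in many tissues and induced by interferon, Ly6a encodes Sca-1, a marker of mouse blood stem cells, and Cd177 encodes a neutrophil glycoprotein that binds PECAM1.

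Ly6g, Ly6c1, Ly6c2, Ly6e and Ly6a lie on chromosome 15 within 204 kb, while Cd177 lies on chromosome 7. On GRCm38, the deposited positions were chr15:74955051-74959905 on the plus strand for Ly6e, chr15:74994877-74998031 on the minus strand for Ly6a, chr15:75044018-75048830 on the minus strand for Ly6c1, chr15:75108158-75111970 on the minus strand for Ly6c2 and chr15:75155240-75159126 on the plus strand for Ly6g. Cd177 was at chr7:24743983-24760311 on the minus strand. No other gene of the table overlapped any of these spans. The bases before the start sites of Ly6g, Ly6c1 and Ly6c2 are shown because these near relatives on the same stretch had close log2 differences with Tβ-MCA, as described further on. Each stretch holds the 250 bases before the RefSeq start on GRCm38.p6, 5′ to 3′ on the strand of the gene, and capitals mark the matches to the motifs searched.
Ly6g, chr15:75155011-75155260, plus strand: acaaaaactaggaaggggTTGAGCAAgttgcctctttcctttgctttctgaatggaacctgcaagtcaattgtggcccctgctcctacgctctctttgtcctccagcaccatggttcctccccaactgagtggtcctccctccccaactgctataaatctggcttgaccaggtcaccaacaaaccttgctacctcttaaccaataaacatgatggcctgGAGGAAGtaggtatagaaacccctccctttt
Ly6c1, chr15:75048838-75049087, minus strand: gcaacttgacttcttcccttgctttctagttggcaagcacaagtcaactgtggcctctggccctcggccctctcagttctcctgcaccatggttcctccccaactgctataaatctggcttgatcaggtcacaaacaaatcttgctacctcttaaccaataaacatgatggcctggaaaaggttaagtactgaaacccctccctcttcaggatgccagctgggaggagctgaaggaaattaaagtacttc
Ly6c2, chr15:75111972-75112221, minus strand: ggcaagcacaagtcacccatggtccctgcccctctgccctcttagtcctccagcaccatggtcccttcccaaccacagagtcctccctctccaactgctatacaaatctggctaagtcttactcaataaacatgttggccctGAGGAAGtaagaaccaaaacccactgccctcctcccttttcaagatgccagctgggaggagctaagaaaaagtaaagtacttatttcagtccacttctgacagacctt
Both strands of the 300 bases around each start, 250 before and 50 after, were searched for GAAANNGAA (the core of the interferon response element), TTCNNNGAA (STAT), TTGCNNAA (C/EBP) and GAGGAAG (PU.1). The Ly6g window held TTGAGCAA, a C/EBP match on the opposite strand at -232 to -225, and GAGGAAG at -31 to -25. The Ly6c2 window held GAGGAAG at -108 to -102 and again at 27 to 33 after the start. The Ly6c1 and Cd177 windows held none of the 4 motifs, and no window of Ly6e or Ly6a was searched. Among 32851 promoters of the same length, GAAANNGAA was in 8.56%, TTCNNNGAA in 8.3%, TTGCNNAA in 10.8% and GAGGAAG in 13.6%. After alignment, the windows of Ly6g and Ly6c1 were 62.5% identical, those of Ly6c1 and Ly6c2 62.3%, and those of Ly6g and Ly6c2 48.8%.

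Ly6c1 and Ly6c2 are near-identical copies, so their reads are the ones most open to being assigned to the wrong gene. Their coding sequences in the GENCODE vM21 annotation, both 393 bases without the stop codon, differed at 9 bases, an identity of 97.7%. The opening 240 coding bases of each are shown because they hold 6 of these differences, which are in capitals.
Ly6c1, coding bases 1 to 240: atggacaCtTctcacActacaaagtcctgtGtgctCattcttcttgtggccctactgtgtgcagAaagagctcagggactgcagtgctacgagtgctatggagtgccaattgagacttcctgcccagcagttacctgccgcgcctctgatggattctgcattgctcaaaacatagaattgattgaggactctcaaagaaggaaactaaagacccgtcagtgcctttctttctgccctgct
Ly6c2, coding bases 1 to 240: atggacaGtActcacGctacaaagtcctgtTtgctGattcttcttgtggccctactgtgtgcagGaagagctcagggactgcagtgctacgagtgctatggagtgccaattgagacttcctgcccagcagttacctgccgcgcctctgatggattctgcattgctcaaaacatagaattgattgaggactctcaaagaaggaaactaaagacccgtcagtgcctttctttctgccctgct
The coding sequence of Ly6g has 402 bases and was 83.1% identical to that of Ly6a, 79.6% to that of Ly6c1, 77.4% to that of Ly6c2 and 52.2% to that of Ly6e. Of the 100-base words in the transcripts of Ly6c1, 10.1% also occurred in another gene, compared with 5.81% for Ly6c2, 1.79% for Cd177, 1.45% for Ly6a and 0% for Ly6g and Ly6e. At 50 bases the shares were 32.8% for Ly6c1, 19.0% for Ly6a, 14.5% for Ly6c2, 5.51% for Cd177, 0.448% for Ly6g and 0% for Ly6e. How the counting treated reads that match several genes is not given in the sources used here, so the values of Ly6c1, and in part those of Ly6a and Ly6c2, are uncertain. The values of Ly6g and Ly6e rest almost wholly on sequence of their own.

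Per length, Cd177 led the 6 genes and Ly6a and Ly6c1 were lowest. RPKM, the deposited read counts scaled to the length of the merged exons and to sample depth, was 306.9 ± 50.8 for Cd177 with PBS (SD, n = 3), which placed it at rank 149 of 29737 genes. Ly6c2 had 40.1 ± 1.93 RPKM with PBS, Ly6e 31.4 ± 1.94, Ly6g 20.0 ± 1.90, Ly6c1 1.84 ± 0.218 and Ly6a 1.24 ± 0.440 (SD, n = 3). The order Cd177, Ly6c2, Ly6e and Ly6g held in all 3 PBS samples. Ly6c1 was also above Ly6a in each of the 3, although their ranges, 1.59 to 2.00 and 0.943 to 1.74 RPKM, overlapped. Ly6g, the gene of the sorting marker, was at rank 2779, below S100a9, the alarmin subunit that makes up much of the neutrophil cytosol, at 40749 to 47694 RPKM with PBS. All 13 genes of a neutrophil marker list were detected in every sample. With TCA the means were 289.4 RPKM for Cd177, 34.5 for Ly6c2, 29.3 for Ly6e, 19.2 for Ly6g, 1.58 for Ly6c1 and 0.909 for Ly6a, and with GCA 296.7, 33.7, 30.2, 15.7, 1.24 and 0.896 RPKM in the same order. With Tβ-MCA they were 270.8 for Cd177, 25.5 for Ly6e, 21.5 for Ly6c2, 10.4 for Ly6g, 1.02 for Ly6c1 and 0.357 for Ly6a, so that Ly6e and Ly6c2 changed places, with SDs of 4.09 and 8.02 RPKM that are both larger than their gap. The merged exons of Ly6c2 and Ly6e are longer than their main spliced transcripts. Scaled to the main transcript in place of the merged exons, Ly6c2 had 133.6 ± 6.43 and Ly6e 52.1 ± 3.21 with PBS, and 71.8 ± 26.7 and 42.3 ± 6.79 with Tβ-MCA (SD, n = 3). With that length Ly6c2 stayed above Ly6e in the group means, so the order of this pair with Tβ-MCA depended on the length used.

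Tβ-MCA samples had less Ly6g and Ly6c2 mRNA than PBS samples, by about the same factor, and a little less Ly6e mRNA, while Cd177, at the highest level, differed by less than the test could call. The comparison asks what the bile acid changes in cultured neutrophils. CPM, the read count scaled to sample depth with TMM, is used for each gene across samples. In the edgeR test 3 of the 6 genes were lower with an adjusted p under 0.05, and 0 were higher. The background was 533 lower genes of 16761, or 3.18%, and 745 higher genes, or 4.44%.

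**Figure D1:**
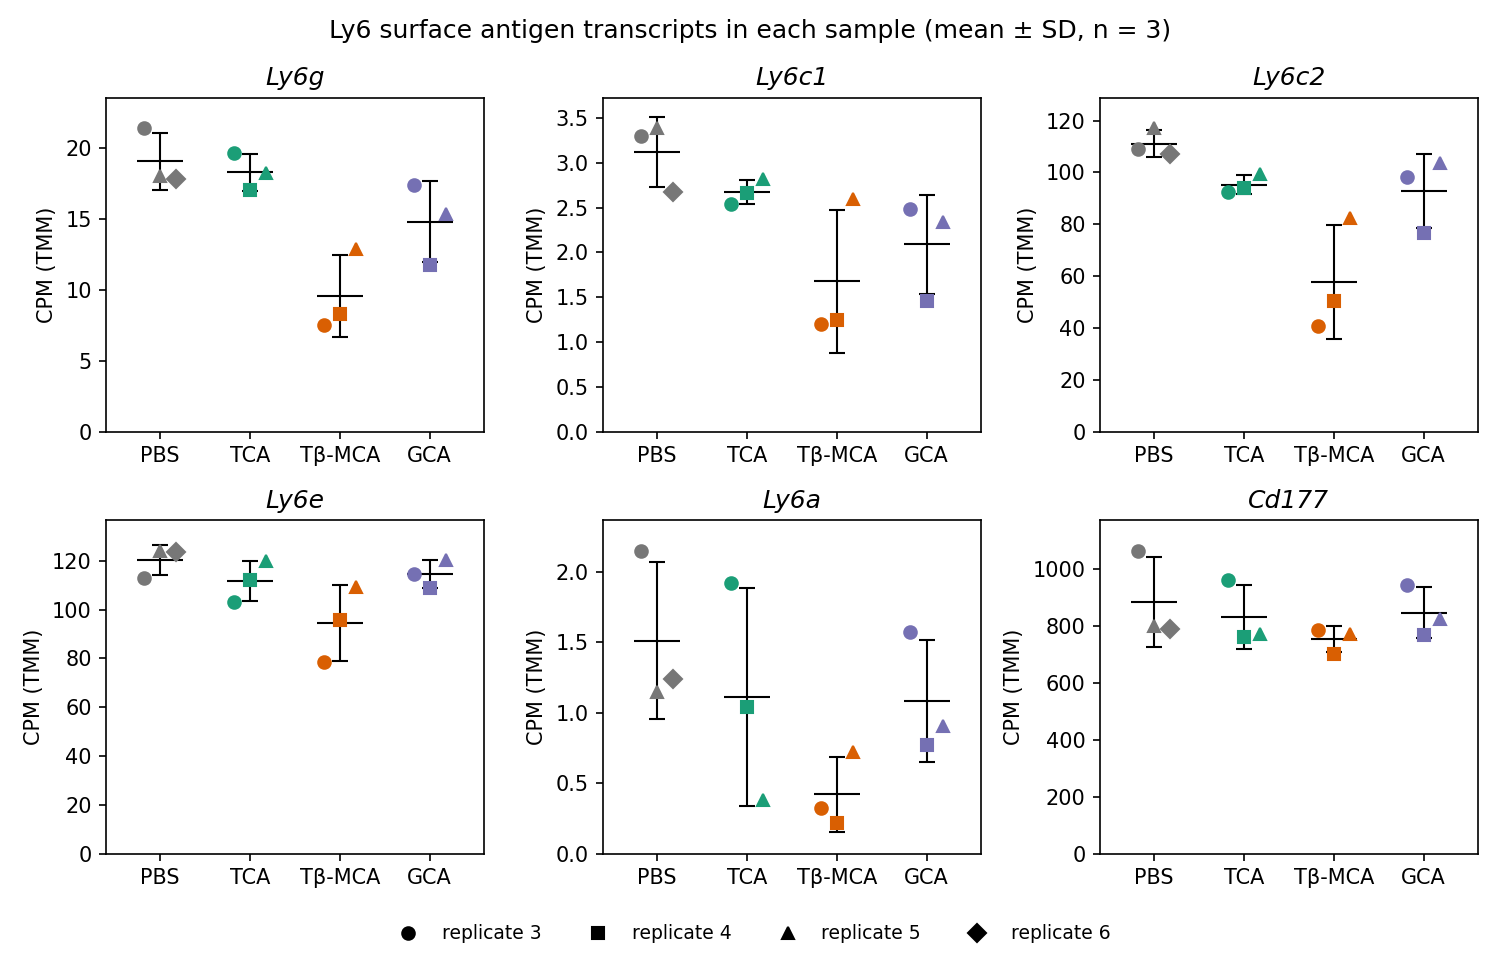
CPM of each of the 6 genes (vertical axis, from 0) in each of the 12 samples by treatment (horizontal axis), where points are samples with the replicate number as shape and bars are the mean ± SD of 3 samples. The 3 Tβ-MCA samples lie below the 3 PBS samples for every gene, with replicate 5 nearest to PBS for all but Cd177.

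Ly6g, the neutrophil marker, was at 21.4, 18.0 and 17.8 CPM with PBS and at 7.54, 8.32 and 12.9 CPM with Tβ-MCA. The groups did not overlap, and Tβ-MCA replicate 5 lay between its 2 companions and the control samples. The log2 fold change was -0.99 (SE 0.18, 95% interval -1.39 to -0.59, edgeR adjusted p = 0.0208). In percent of the PBS mean, the 3 Tβ-MCA samples held 39.5, 43.6 and 67.7%.

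Ly6c2, the major Ly6C gene in these cells, was at 109.2, 117.0 and 107.2 CPM with PBS and at 40.7, 50.4 and 82.6 CPM with Tβ-MCA. The same sample, replicate 5, was again the highest of its group and still below every control sample. The log2 fold change was -0.94 (SE 0.22, 95% interval -1.43 to -0.45, edgeR adjusted p = 0.0353). Ly6c1, its minor copy, was at 3.30, 3.38 and 2.67 CPM with PBS and at 1.20, 1.24 and 2.60 CPM with Tβ-MCA. Its highest Tβ-MCA sample nearly reached the lowest PBS sample, and the log2 difference of -0.89 (SE 0.27) had an edgeR adjusted p of 0.0585, which misses the threshold.

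Ly6e, the broadly expressed member, was at 113.1, 124.1 and 123.5 CPM with PBS and at 78.4, 95.7 and 109.3 CPM with Tβ-MCA. The difference was smaller than for Ly6g and Ly6c2, with a log2 fold change of -0.35 (SE 0.098, 95% interval -0.56 to -0.14, edgeR adjusted p = 0.0434). Ly6a, the Sca-1 gene, had few reads, with counts of 75, 39 and 46 with PBS and 11, 8 and 27 with Tβ-MCA, which are 2.15, 1.15 and 1.24 CPM against 0.329, 0.216 and 0.723 CPM. Its log2 difference of -1.82 was the lowest of the 6, with a wide 95% interval of -3.03 to -0.62 and an edgeR adjusted p of 0.0634. By the study's own thresholds, an unadjusted p under 0.05 and a change of at least 2-fold, Ly6a was the one member that passed, against a background of 1.86% of genes lower.

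Cd177, the PECAM1-binding glycoprotein, was at 1063, 799 and 787 CPM with PBS and at 785, 702 and 772 CPM with Tβ-MCA. The groups came within 2 CPM of each other without crossing, and PBS replicate 3 stood above the other samples. Replicate 3 was also the highest of its group with Tβ-MCA, with TCA at 959 CPM and with GCA at 944 CPM. The log2 difference was -0.23 (SE 0.12, 95% interval -0.49 to 0.03, edgeR adjusted p = 0.267). Without PBS replicate 3 it was -0.075 (edgeR adjusted p = 0.730). Over the 6 genes the median log2 difference was -0.91, beside 0.0041 over all genes tested. For each of the 6, all 3 Tβ-MCA samples were below all 3 PBS samples, as for 12.8% of all genes, and the 6 share the same samples, so they are not 6 independent observations.

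Which of the 3 calls held depended on the samples in the fit, and the calls over all genes moved with them. Without Tβ-MCA replicate 5 edgeR called 5 of the 6 genes lower, all but Cd177, with log2 fold changes of -1.27 for Ly6g and -1.29 for Ly6c2, beside 1617 lower genes of 17131 tested. Without PBS replicate 6 it called only Ly6g, beside 168 genes in all. Without PBS replicate 3, PBS replicate 5, Tβ-MCA replicate 3 or Tβ-MCA replicate 4 it called 0 members and 0 genes of any kind. In these fits 5 or 6 members had an unadjusted p under 0.05. So had 3599 of 17113 genes without PBS replicate 3 and 3471 of 17136 without PBS replicate 5. A fit of the PBS and Tβ-MCA samples alone called 0 members and 0 genes. There 5 members and 3485 of 16064 genes had an unadjusted p under 0.05. Total library size and limma ended the call of Ly6e. The direction was lower for each member in every one of the 83 values that the alternatives gave. These fits reuse the same samples, and for each member all Tβ-MCA samples lay below all PBS samples. Leaving out a sample could therefore hardly turn the sign, and the 83 values add no separate support.

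**Figure D2:**
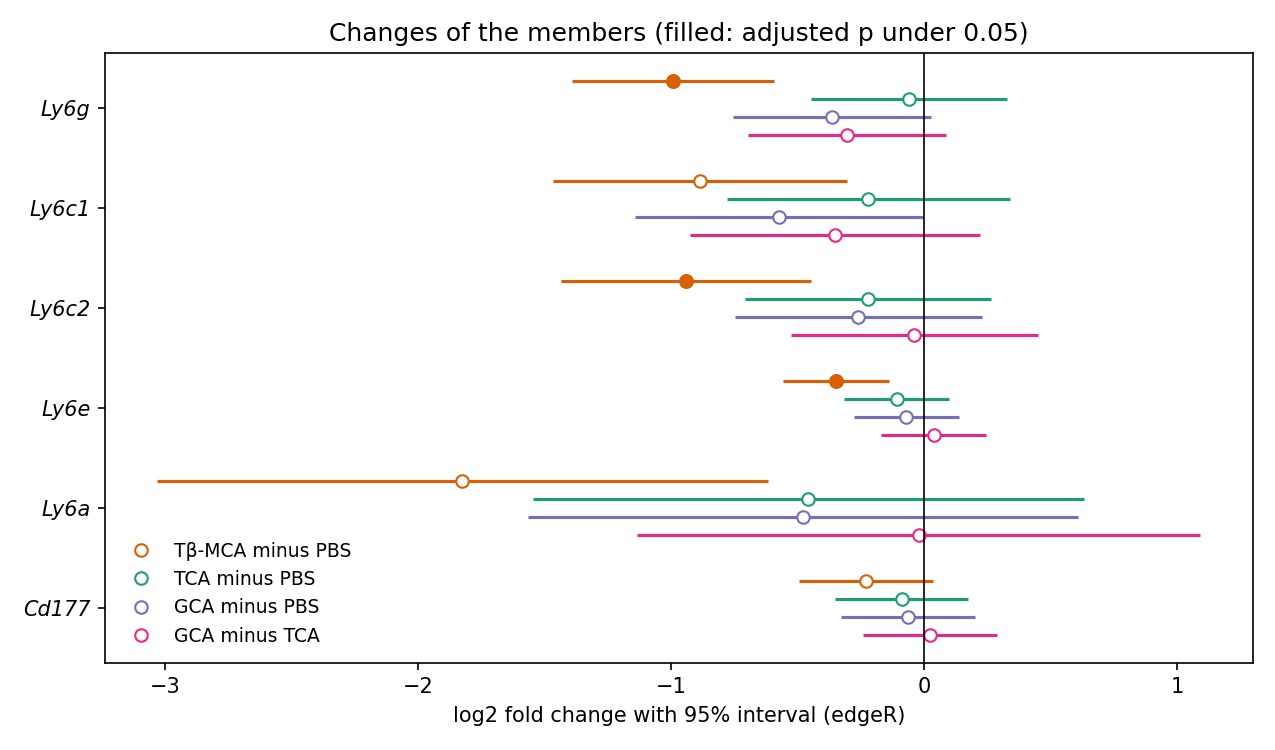
Log2 fold change (horizontal axis) of each of the 6 genes in 4 comparisons, with the 95% interval of the edgeR fit as a line and filled points for an adjusted p under 0.05. Ly6g, Ly6c2 and Ly6e are filled for Tβ-MCA against PBS only, and the interval of Cd177 includes 0 in all 4 comparisons.

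TCA, the taurine conjugate of cholic acid, gave no call for any member against PBS. Ly6g was at 19.6, 17.02 and 18.3 CPM with TCA, which overlapped PBS, and the log2 difference was -0.06 (95% interval -0.45 to 0.33, edgeR adjusted p = 0.9999). The 0 of 6 members called stand beside 0 of 16761 genes, or 0%, and 0 members had an unadjusted p under 0.05, against 546 genes. DESeq2 also called 0 members. Ly6c2 was at 92.3, 94.1 and 99.5 CPM with TCA, below all PBS samples, as for 4.76% of all genes. Its log2 difference was -0.22 (95% interval -0.71 to 0.27). The other log2 differences were -0.22 for Ly6c1, -0.11 for Ly6e, -0.46 for Ly6a and -0.09 for Cd177, and their samples overlapped PBS. Ly6a varied most with TCA, with 62, 43 and 14 reads in the 3 samples.

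GCA, the glycine conjugate of the same acid, gave lower values of Ly6g, Ly6c1 and Ly6c2 without a call. Ly6g was at 17.4, 11.7 and 15.3 CPM with GCA, all below PBS, with a log2 difference of -0.36 (SE 0.18, 95% interval -0.75 to 0.03, edgeR adjusted p = 0.999). Ly6c1 was at 2.48, 1.46 and 2.33 CPM with GCA, also below PBS, with a log2 difference of -0.57 (SE 0.27, 95% interval -1.14 to -0.0027, edgeR adjusted p = 0.999). Ly6c2 was at 98.4, 76.6 and 103.5 CPM with GCA, below PBS as well, with a log2 difference of -0.26 (95% interval -0.75 to 0.23). In each of these genes GCA replicate 4 was the lowest sample of its group. Samples all below PBS were found for 4.83% of all genes in this comparison. For Ly6e, Ly6a and Cd177 the GCA samples overlapped PBS, with log2 differences of -0.07, -0.48 and -0.06. The 0 of 6 members called stand beside 0% of all genes, with 1 member, Ly6c1, and 591 genes at an unadjusted p under 0.05, and DESeq2 called 0 members.

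GCA and TCA share dose and time and differ in the amino acid joined to cholic acid, glycine or taurine, so this pair was compared directly. No member was called, as for 0% of all genes, with 0 members and 412 genes at an unadjusted p under 0.05, and DESeq2 called 0 members. The log2 difference, GCA minus TCA, was -0.30 for Ly6g (95% interval -0.69 to 0.09) and -0.35 for Ly6c1 (95% interval -0.92 to 0.22). For Ly6c2 it was -0.04 (95% interval -0.53 to 0.45), for Ly6e 0.04 (95% interval -0.17 to 0.25) and for Cd177 0.03 (95% interval -0.24 to 0.29). Ly6a had the widest 95% interval, -1.13 to 1.09 around -0.02. These intervals leave room for a change of either sign in each gene. Ly6c1 was the one gene of the 6 with all GCA samples below all TCA samples, as for 4.19% of all genes. The comparisons with PBS share the PBS samples, so their values are given side by side only.

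Ratios within a sample do not depend on its depth. Ly6g per Ly6c2, as a ratio of RPKM values, was 0.448 to 0.570 with PBS, 0.526 to 0.618 with TCA, 0.454 to 0.539 with Tβ-MCA and 0.431 to 0.514 with GCA. The Tβ-MCA range thus lay within the PBS range, and the 2 genes were lower to a like extent. Ly6g per Cd177 was 0.0607 to 0.0682 with PBS, 0.0617 to 0.0713 with TCA, 0.0461 to 0.0560 with GCA and 0.0289 to 0.0504 with Tβ-MCA. For this pair of neutrophil surface genes the PBS samples lay above all Tβ-MCA and all GCA samples. Ly6c2 per Ly6e was 1.20 to 1.33 with PBS, 1.15 to 1.24 with TCA, 0.972 to 1.19 with GCA and 0.716 to 1.04 with Tβ-MCA. No test was made of these ratios, which follow from the gene values above.

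**Figure D3:**
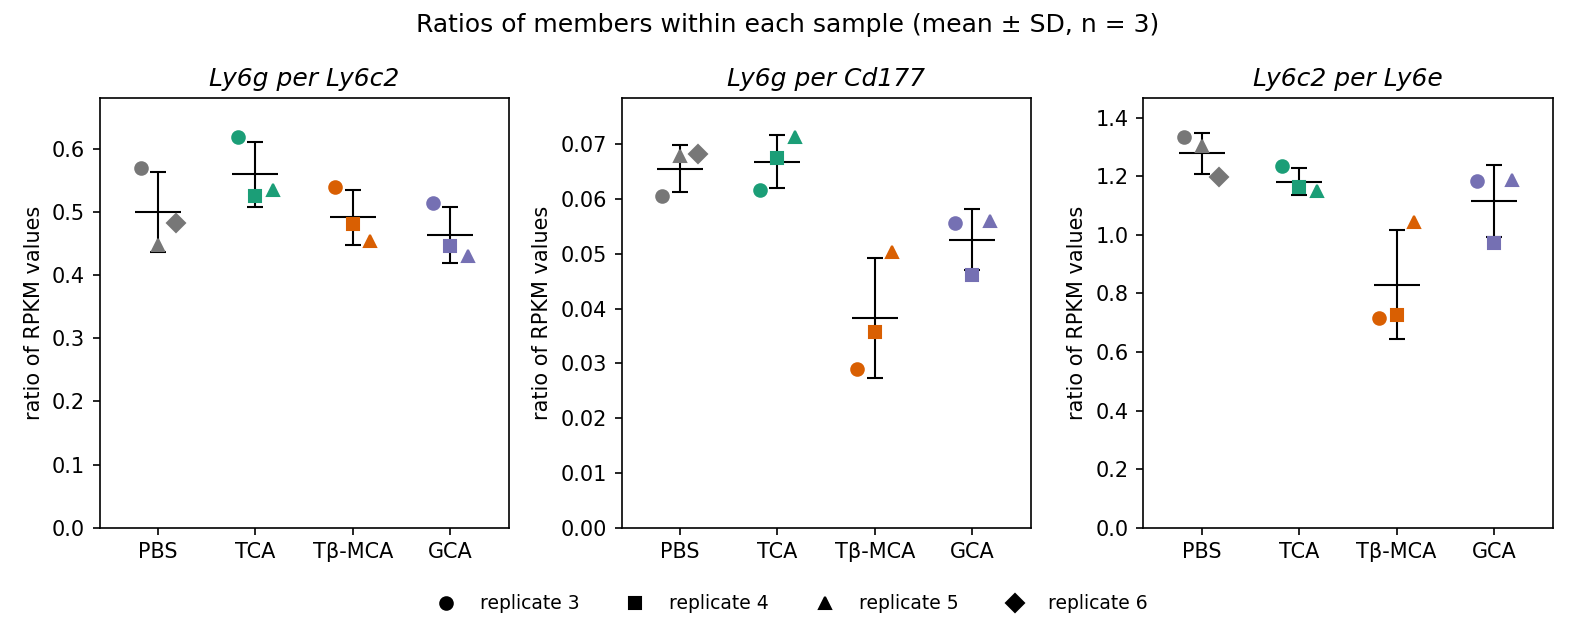
Ratio of RPKM values (vertical axis, from 0) of Ly6g to Ly6c2, Ly6g to Cd177 and Ly6c2 to Ly6e in each of the 12 samples by treatment (horizontal axis), with bars for the mean ± SD of 3 samples. Ly6g per Ly6c2 overlaps between Tβ-MCA and PBS, whereas the other ratios are lower in all 3 Tβ-MCA samples than in all PBS samples.

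Ly6c1 supplied a small part of the reads of the Ly6C pair. Its share of the reads of Ly6c1 and Ly6c2 together was 2.93, 2.81 and 2.43% with PBS and 2.86, 2.41 and 3.05% with Tβ-MCA, and the 95% Wilson intervals of these 6 samples overlapped. It was 2.68, 2.75 and 2.75% with TCA and 2.46, 1.87 and 2.21% with GCA, so that all GCA samples were below all TCA samples. The interval of GCA replicate 4, 1.43 to 2.45%, lay below that of Tβ-MCA replicate 5, 2.51 to 3.70%. Such intervals cover counting error only, and reads shared by the copies would move the share.

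Over the 12 samples, the 4 highest of the 15 pairs of members joined Ly6g, Ly6c1, Ly6c2 and Ly6e. Pearson's r of log2 CPM was 0.94 for Ly6g and Ly6c2, 0.93 for Ly6g and Ly6c1 and 0.92 for Ly6c1 and Ly6c2, and 0.94 for Ly6c2 and Ly6e. It was 0.16 for Cd177 and Ly6e, the lowest of the 15 pairs. These values describe 12 samples that share libraries and the same treatment groups. Many other genes were closer to Ly6g than its relatives were, with Ly6c2 at rank 135 and Ly6c1 at rank 241 of 16760 genes, and Ly6g was at rank 222 for Ly6c2. The closest to Ly6g were Serpinb1a, an inhibitor of neutrophil serine proteases, at 0.989, Nucb2 at 0.988 and Dfna5, which encodes gasdermin E, at 0.985. The closest to Ly6c2 were S100a1 at 0.996, Ctsg, the cathepsin G of azurophilic granules, at 0.994 and Fkbp2 at 0.992. The closest to Cd177 were Spn, the surface sialoglycoprotein CD43, and the cytoskeletal linker Vcl, both at 0.981, and Lta4h, the leukotriene A4 hydrolase, at 0.978. For Ly6c1 they were Tmod3 (0.968), Gm37539 (0.966) and Mkrn1 (0.964), for Ly6e Cd74 (0.981), Gm42674 (0.979) and S100a4 (0.978), and for Ly6a Abca7 (0.949), Acap1 (0.935) and Gm12314 (0.935).

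Within 100 kb of the 5 members there were 15 other genes, of which 7 were tested. With Tβ-MCA 1 was lower and 0 higher, beside 3.18% lower and 4.44% higher among all genes. Of the 7 log2 differences 6 were negative, beside 8284 of 16761 over all genes. The lower gene was Ly6i, another member of the family, at 4.11 ± 0.515 CPM with PBS and 1.76 ± 0.475 with Tβ-MCA (SD, n = 3), with a log2 fold change of -1.22 (SE 0.19, edgeR adjusted p = 0.0206). Ly6i shares 50-base words with Ly6g, Ly6c1 and Ly6a, so its reads too may be assigned to the wrong gene. I830127L07Rik, which lies between Ly6c2 and Ly6g, was at 66.9 ± 6.19 CPM with PBS and 23.0 ± 15.6 with Tβ-MCA (SD, n = 3). Its log2 difference of -1.54 (SE 0.40) had an edgeR adjusted p of 0.0539. Gm5960, between Ly6c1 and Ly6c2, was at 3.55 ± 1.22 CPM with PBS and 0.732 ± 0.873 with Tβ-MCA (SD, n = 3), a log2 difference of -2.25 (SE 0.65, edgeR adjusted p = 0.0636). Gm28068, between Ly6a and Ly6c1, was at -0.25 (edgeR adjusted p = 0.325), Gm29126, beside Ly6e, at 0.36 (edgeR adjusted p = 0.194) and Gm37042, between Ly6e and Ly6a, at -0.20 (edgeR adjusted p = 0.681). Gm8000, the remaining tested neighbour, was at -0.27 (edgeR adjusted p = 0.8001).

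Other genes of the family and of its pathway were counted from fixed lists, beside 3.18% lower and 4.44% higher with Tβ-MCA among all genes. Of 36 further LY6/uPAR genes, 20 were in the table and 7 were tested with Tβ-MCA, and Ly6i alone was lower. Plaur, the urokinase receptor, was at 378 ± 22.3 CPM with PBS and 392 ± 23.2 with Tβ-MCA (SD, n = 3), a log2 difference of 0.05 (edgeR adjusted p = 0.693). Of 31 tested genes on a list for the GPI anchor and its processing, 1 was higher and 0 were lower. The higher gene was Pigyl, related to the class Y subunit of the enzyme that starts the anchor, by 0.48 on the log2 scale (SE 0.10, edgeR adjusted p = 0.0212). The median over these 31 genes was a log2 difference of 0.06. Their summed CPM was 709 to 769 with PBS, of which Pigb alone had a mean of 371 CPM, so the sum depends heavily on 1 gene. Of 5 genes for proteins known to act with Ly6G or CD177, Itgal, the αL integrin chain, was lower, by a log2 fold change of -0.35 (SE 0.096, edgeR adjusted p = 0.0424). The integrin chains Itgam and Itgb2 differed by -0.11 and -0.10 on the log2 scale without a call, and the CD177 partners Pecam1 and Prtn3 by -0.63 and -0.78, with edgeR adjusted p of 0.0795 and 0.0811.

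Interferon-stimulated genes were counted because Ly6e and Ly6a are known to respond to interferon. Of 25 tested, 2 were higher with Tβ-MCA and 0 lower, beside 4.44% higher and 3.18% lower among all genes. Of the 25 log2 differences 16 were negative, beside 8284 of 16761 over all genes, and the median of the 25 was -0.14. Gbp2, an interferon-induced GTPase, was at 5.27 ± 1.04 CPM with PBS and 11.2 ± 3.08 with Tβ-MCA (SD, n = 3), a log2 fold change of 1.08 (SE 0.24, edgeR adjusted p = 0.0253). Ifit1, which binds foreign RNA, rose by 0.74 on the log2 scale (SE 0.21, edgeR adjusted p = 0.0429). Among the uncalled genes, Oasl1 was at -0.97 on the log2 scale (edgeR adjusted p = 0.0938), Oas1a at -0.63 (edgeR adjusted p = 0.0946) and Isg15 at -0.56 (edgeR adjusted p = 0.130). The list thus had values of both signs. With TCA or GCA against PBS, and with GCA against TCA, 0 genes of any of these lists were called by edgeR, as for all genes.

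Monocyte markers had lower values with Tβ-MCA, as the members did. With TCA, 2 of the 12 had a negative log2 difference, and the median of the 12 was 0.08. With GCA 10 of the 12 were negative, with a median of -0.13. All 6 members had negative log2 differences with TCA and with GCA, none of them called. In bulk RNA, fewer cells of a type and less RNA per cell cannot be told apart. The summed CPM of 12 monocyte markers was 2680 to 3235 with PBS, 2643 to 3235 with TCA, 1784 to 2853 with GCA, and 341, 405 and 2045 in Tβ-MCA replicates 3, 4 and 5. Most of the PBS sum came from Fn1, the fibronectin gene, at 2190, 1646 and 1621 CPM with PBS and 50.3, 54.4 and 1233 CPM with Tβ-MCA, and F13a1, the coagulation factor XIII A chain, was next, at 519 to 584 and 54.8 to 367 CPM. The 2 Tβ-MCA samples with the lowest monocyte sum were those with the lowest Ly6g, Ly6c1 and Ly6c2, and the lowest GCA sum was in replicate 4, the GCA sample with the lowest values of these 3 genes. Replicate 5 was also the highest Tβ-MCA sample in the neutrophil and eosinophil sums, in which replicate 4 was the lowest. In Tβ-MCA replicates 3, 4 and 5 the summed neutrophil markers were at 43558, 39923 and 45453 CPM. The summed eosinophil markers were at 78.5, 54.1 and 124 CPM. The basophil and mast cell sum was instead highest in replicate 3, at 36.8 CPM. By edgeR 0 of the 12 monocyte genes was called with Tβ-MCA, with 5 at an unadjusted p under 0.05, beside 24.9% of all genes. All 12 had negative log2 differences with Tβ-MCA, beside 8284 of 16761 over all genes, and the median of the 12 was -0.85. None of the 12 was at 0 in any group, and Ccr2, the chemokine receptor of Ly6C-high monocytes, was at 51.2, 37.3 and 37.9 CPM with PBS and at 2.03, 2.70 and 29.2 CPM with Tβ-MCA. Fn1, Ccr2 and F13a1 had the lowest log2 differences of the 12, at -2.03, -1.89 and -1.71. Csf1r, Ly86 and Mrc1 differed least, at -0.42, -0.43 and -0.49. The part of these cells in the Ly6g and Ly6c2 differences was not tested.

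Neutrophil markers had lower values with Tβ-MCA as well. The summed CPM of the 13 neutrophil markers was 49916 to 61559 with PBS, 47813 to 58659 with TCA, 45237 to 56215 with GCA and 39923 to 45453 with Tβ-MCA. S100a9 and Ngp, with means of 22959 and 16026 CPM with PBS, were the largest parts of this sum. Of the 13 genes, 4 were lower and 0 higher with Tβ-MCA, beside 3.18% lower and 4.44% higher among all genes. Of the 13 log2 differences 12 were negative, beside 8284 of 16761 over all genes, and the median of the 13 was -0.31. For 11 of the 13 all Tβ-MCA samples were below all PBS samples, beside 12.8% of all genes. The 4 called were Camp, the cathelicidin of specific granules (log2 fold change -1.14, edgeR adjusted p = 0.0417), Mmp9, the gelatinase (-0.63, edgeR adjusted p = 0.0481), S100a8, the partner of S100a9 (-0.30, edgeR adjusted p = 0.0402), and Lcn2, the siderophore-binding lipocalin (-0.29, edgeR adjusted p = 0.0404). The log2 fold changes of Ly6g and Ly6c2, -0.99 and -0.94, lay between those of Camp and Mmp9. The uncalled azurophilic granule genes Elane and Mpo were at -1.43 and -1.40 (edgeR adjusted p = 0.160 and 0.137), Retnlg at -0.89 (edgeR adjusted p = 0.136) and Ltf, the lactoferrin of specific granules, at -0.86 (edgeR adjusted p = 0.0743). Csf3r, the receptor for G-CSF, was the one gene of the 13 with a positive log2 difference, 0.05 (edgeR adjusted p = 0.768).

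Among the remaining lists, 1 of 6 B cell markers (Cd79a, log2 fold change -0.81, edgeR adjusted p = 0.0326) and 1 of 5 eosinophil markers (Siglecf, -0.93, edgeR adjusted p = 0.0326) were lower with Tβ-MCA. The share of all genes called lower was 3.18%. The eosinophil sum was 138 to 241 CPM with PBS and 54.1 to 124 CPM with Tβ-MCA, and the B cell sum 7.55 to 12.8 against 3.78 to 5.92 CPM. The tested markers of plasmacytoid dendritic cells, plasma cells, T and NK cells, basophils and mast cells, erythroid cells, stem and progenitor cells and endothelial cells gave 0 calls by edgeR. The stem and progenitor sum, the list nearest to Ly6a by its known use, was 55.5 to 77.3 CPM with PBS and 43.4 to 60.2 CPM with Tβ-MCA. Their part in the members' differences was not tested.

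**Figure D4:**
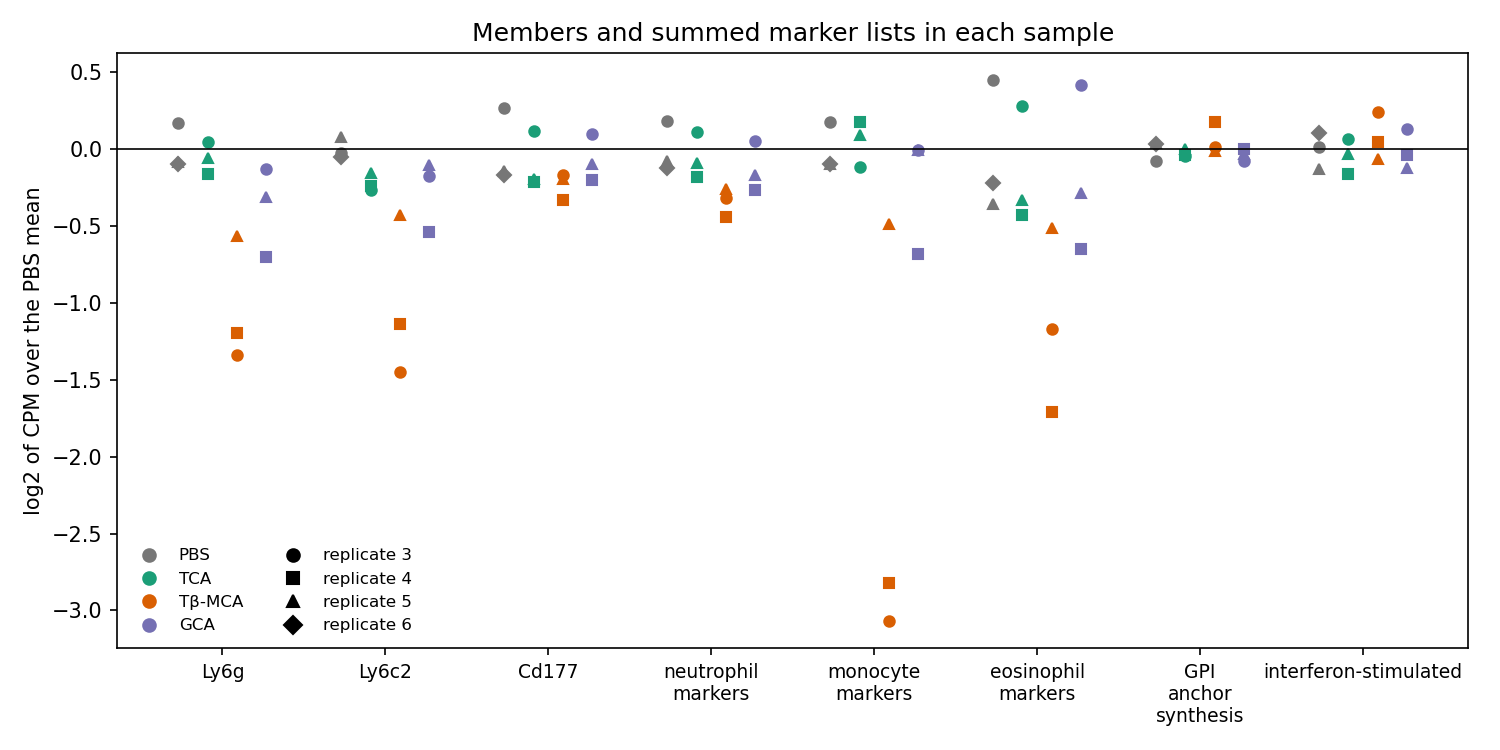
Log2 of CPM over the PBS mean (vertical axis) for Ly6g, Ly6c2 and Cd177 and for the summed CPM of 5 gene lists (horizontal axis) in each of the 12 samples, with color for treatment and shape for replicate number. Tβ-MCA replicates 3 and 4 are lowest for Ly6g, Ly6c2 and the monocyte sum, while the GPI anchor and interferon-stimulated sums stay near 0.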

How the data were processed

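Stranded mRNA libraries of 12 samples were sequenced. Per the labels, reads were processed with Trimmomatic 0.36, STAR 2.5.3a and featureCounts of Subread 1.5.1 on GRCm38 (mm10); whether counting used strand, and how it treated reads matching several genes, is not given in the sources used here. The authors deposited raw counts per gene, without normalization, and RPKM values, which are those counts scaled to merged exon length and sample depth. RPKM recomputed from the counts differed by at most 1.3e-06 in relative terms.

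Comparisons were fitted in edgeR 4.0.16 under R 4.3.3 (TMM, filterByExpr by group, robust quasi-likelihood test on all 12 samples). P-values were adjusted by Benjamini-Hochberg over 16761 genes, and an adjusted p under 0.05 was a call. The methods of the study name edgeR with cutoffs of p 0.05 and 2-fold, used here with unadjusted p as the study's thresholds, and elsewhere name DESeq2 with Benjamini-Hochberg adjustment. Log2 CPM used a prior count of 2. The script was tested on simulated data. Alternatives used DESeq2 1.42.0, limma 3.58.1 on log2(RPKM + 1) and log2(RPKM + 0.1) for genes averaging 0.5 RPKM or more, total library size, no filter, at least 10 counts in every sample, 2 groups alone, the replicate number as a block, and each sample left out. The length of the main transcript was an alternative chosen after seeing the data. Sequences and positions were read with Python 3.11.15 and Biopython 1.88 from RefSeq and GENCODE vM21 tables, and plots used matplotlib 3.10.9.

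The labels gave each group. Under 3 counts per sample a gene was taken as not detectable, which covers counting error only. The 6 genes, the lists and the rule for named genes were chosen with earlier results of these data known. The rule took the members, up to 4 called genes per list by lowest p, the 3 genes most like each member by Pearson's r, and up to 4 neighbours by CPM within 100 kb. Plaur, S100a9, Ccr2, Gm5960, Gm8000 and the uncalled partner, interferon, monocyte and neutrophil genes were added after their values were seen.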

Additional observations from a re-analysis of the deposited data

How the results depend on the processing

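With Tβ-MCA against PBS, 3 members and 1278 genes (745 higher, 533 lower) were called. DESeq2 gave 5 and 2035 and no filter 6 and 2406. The 2 groups alone gave 0 and 0, with 5 members and 3485 genes at an unadjusted p under 0.05. Limma on log2(RPKM + 0.1) called 689 genes, and total library size gave 1013 higher and 395 lower genes. Leaving out 1 sample gave 0 to 5 members and 0 to 3076 genes. With TCA against PBS, 0 genes were called, but 1 by DESeq2 and 37 with no filter. No filter gave 36 genes with GCA against PBS and 42 with GCA against TCA.

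The replicate block called 4 members with Tβ-MCA (Ly6g and Ly6e, Ly6c1 and Cd177 at edgeR adjusted p of 0.0437 and 0.0467, and not Ly6c2 at 0.0797) and 1498 genes, and 3 genes with TCA. Deviations of same-numbered samples correlated at 0.24 and 0.060 for Tβ-MCA and PBS, 0.33 and 0.13 for TCA and PBS, 0.32 and 0.13 for GCA and PBS, and 0.31, 0.067 and 0.15 for GCA and TCA. Unlike numbers averaged -0.042 to -0.086 in the 4 comparisons. All 9 same-number values were positive, but not every pair was over 0.1, and GCA replicate 4 correlated better with TCA replicate 5 than with TCA replicate 4. The labels state no pairing, and whether the numbers mark a shared source remained undecided.

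Directions that turned were all uncalled. For Ly6a with GCA against TCA, the log2 difference became 0.0034 with the replicate block, 0.027 and 0.14 with limma (pseudocounts 1 and 0.1), and -0.43 to 0.60 leaving out 1 sample. Leaving out 1 sample gave -0.11 to 0.030 for Ly6g and -0.20 to 0.065 for Cd177 with TCA against PBS, and -0.15 to 0.093 for Cd177 with GCA against PBS. With GCA against TCA it gave -0.015 to 0.091 for Ly6e, -0.060 to 0.14 for Cd177 and -0.12 to 0.083 for Ly6c2. The cause was not tested. Depth limits Ly6a most, with 8 to 75 reads per sample.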
